A study of Mus musculus with 5 samples.

Results

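The genes described here are 10 genes by which epithelial to mesenchymal transition (EMT) is usually read: the epithelial adhesion genes Cdh1 and Epcam, the mesenchymal genes Cdh2 and Vim, and the transcription factors Snai1, Snai2, Zeb1, Zeb2, Twist1 and Prrx1. They were chosen by name as regulators and markers of this transition and are 10 of 41028 gene names in the deposited matrices. Each was compared between epithelial cells, defined as cells with at least 10 UMIs of the keratins Krt8 and Krt18 together per 10000 UMIs, and fibroblasts, with a control for RNA carried over between cells. The data are single-cell RNA sequencing of mammary tumours of PyMT mice, a transgenic model in which the polyoma virus middle T oncogene causes mammary carcinoma. A UMI (unique molecular identifier) marks a captured transcript, so counts are of molecules. Libraries were made with 10x Genomics single cell 3' v2, which isolates cells in droplets, or with the BD Rhapsody whole transcriptome assay, which isolates them in microwells. Of the 5 libraries, 2 are fresh tumours on 10x (fresh 10x 1 and fresh 10x 2) and 1 is a 10x library titled 24 h (stored 10x), for which the protocol describes a digest held overnight at 4 °C until viability had dropped. BD 1 is a fresh tumour on BD Rhapsody, with further matrices named as replicates that were not used, and BD 2 carries a fresh title but has files named for 24 h, so no storage state was assumed for it. All libraries share the PyMT transgene, a tumour digest and an enrichment for viable cells. The sources used here do not give the promoter of the transgene, the strain, the age of the mice or the number of tumours per library, so p-values measure only the spread between these libraries, which may be technical.

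In EMT an epithelial cell loses its cell to cell junctions and apical to basal polarity and takes on the shape and motility of a mesenchymal cell. Factors of the Snail, Zeb and Twist families bind E-box sequences and repress Cdh1, which encodes E-cadherin, while intermediate filaments of keratin give way to vimentin, the product of Vim, and E-cadherin to N-cadherin, the product of Cdh2. In mammary tumours these factors are also the normal genes of the stroma: fibroblasts, pericytes and endothelial cells express them without any transition, which is why a few stromal transcripts in an epithelial droplet matter here.

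The proximal promoters of Epcam, Snai1 and Vim, an epithelial member, a factor and a mesenchymal product, are shown because the Snail, Zeb and Twist factors in this set act through E-boxes. Of the 10 members, 6 matched the RefSeq promoter table of build GRCm38.p6 (GRCm38 is the assembly also called mm10, the build named by the submitters). The 250 bases before the RefSeq start are given 5′ to 3′ on the strand of the gene, with the E-box CACCTG, on either strand (CAGGTG on the opposite one), in capitals. Epcam, the epithelial adhesion molecule, is at chr17:87635979-87651127 and its window at chr17:87635729-87635978, plus strand. Snai1, the founding member of the Snail family, has its window at chr2:167537945-167538194, plus strand, and Vim at chr2:13574061-13574310, plus strand.
Epcam: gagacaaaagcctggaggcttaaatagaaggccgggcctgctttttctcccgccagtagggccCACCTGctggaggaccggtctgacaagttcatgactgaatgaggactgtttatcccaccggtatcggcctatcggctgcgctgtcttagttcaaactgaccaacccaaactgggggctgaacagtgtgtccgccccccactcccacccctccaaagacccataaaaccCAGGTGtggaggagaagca
Snai1: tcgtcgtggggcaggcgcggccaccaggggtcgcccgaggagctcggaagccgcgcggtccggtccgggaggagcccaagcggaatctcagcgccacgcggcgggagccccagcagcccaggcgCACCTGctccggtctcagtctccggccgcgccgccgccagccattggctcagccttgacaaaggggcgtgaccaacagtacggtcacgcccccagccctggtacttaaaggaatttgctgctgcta
Vim: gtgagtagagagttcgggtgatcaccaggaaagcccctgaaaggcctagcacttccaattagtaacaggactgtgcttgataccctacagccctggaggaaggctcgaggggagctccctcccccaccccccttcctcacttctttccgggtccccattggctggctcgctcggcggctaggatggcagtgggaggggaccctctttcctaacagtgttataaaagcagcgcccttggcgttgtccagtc
The Epcam window held 2 matches, at 187 to 182 bases before the start on the same strand and at 19 to 14 bases on the opposite strand. The Snai1 window held 1, at 126 to 121 bases before the start. The Vim window held 0 matches, as did those of Twist1, Prrx1 and Zeb2. Among 32817 windows of the same length, 17.2% held CACCTG and 2.07% held 2 or more. A match is a description of letters in a window and was not tested as a binding site.

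Cells were classed by marker sums per 10000 UMIs, among cells with at least 1000 UMIs. In the order fresh 10x 1, fresh 10x 2, stored 10x, BD 1 and BD 2, which is kept throughout, the epithelial gate took 1321, 1328, 2830, 1735 and 1470 cells. The fibroblast gate (Col1a1, Col1a2 and Dcn) took 195, 123, 300, 321 and 219 cells. Libraries held 29166129 to 59957945 UMIs with medians of 8926 to 12474 UMIs per cell. Among marker genes the gates did not use, the claudin Cldn7 was at 297 to 459 UMIs per 1000000 UMIs of the class (CPM) in epithelial cells and 4.16 to 31.2 in fibroblasts, and the fibroblast receptor gene Pdgfra at 1.54 to 4.18 against 300.2 to 548. The keratin gate left out more cells on BD Rhapsody, where 815 and 1121 cells in no class had 5 to 10 keratin UMIs per 10000, against 56, 64 and 275 on 10x. Cells in no class held Epcam at 926 to 1269 CPM. In fresh 10x 1 these 108 cells also held Vim at 515, Snai2 at 51.6 and Cdh2 at 12.6 CPM. Of them, 35 had at least 10 UMIs of the basal keratins Krt5 and Krt14 per 10000. The epithelial levels and cell shares below therefore cover only cells past the Krt8 and Krt18 gate. The 10x libraries shared 1, 1 and 5 barcodes in pairs and the BD Rhapsody libraries 24. No doublet caller was run, and epithelial cells that also passed another class gate numbered 11, 18, 80, 15 and 13.

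All 10 members differed between epithelial cells and fibroblasts, Cdh1 and Epcam being higher and the other 8 lower in epithelial cells. Raw UMIs were summed per class and library and tested with edgeR's quasi-likelihood test, with the library as a block. The members' 10 calls stand against 72.4% of 14550 genes called in the same comparison (41% higher, 31.3% lower), with a median log2 fold change over all genes of 0.17, so a call alone sets no member apart. With the UMIs expected to be carried over between these classes subtracted from each, the log2 fold change was 8.0 in place of 4.54 for Cdh1, 8.22 in place of 4.86 for Epcam, -7.26 in place of -6.47 for Zeb1 and -7.48 in place of -6.63 for Zeb2. For Prrx1 it was -11.23 in place of -7.91 and for Twist1 -10.39 in place of -7.81. Cdh1, Epcam, Prrx1 and Twist1 then had 0 UMIs in some libraries of the class with less, so these fitted values are not bounds. Without epithelial cells that passed another class gate Zeb1 was at -7.07 and Zeb2 at -7.63, and with the keratin gate at 20 Snai2 was at -4.81 in place of -4.05.

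Cdh1 stood at 85.3, 82.1, 101, 209 and 201 CPM in epithelial cells and at 1.58, 3.12, 7.37, 7.78 and 11 CPM in fibroblasts. The ranges did not overlap, and the BD Rhapsody libraries were the highest in both classes. The log2 fold change was 4.54 (SE 0.19, edgeR adjusted p = 5.31e-08). Epcam, a homophilic adhesion molecule of epithelia, stood at 2120.0, 1898, 1643, 1763 and 1786 CPM in epithelial cells. In fibroblasts it stood at 38.3, 32.8, 92.6, 84.5 and 103 CPM, lowest in the fresh 10x pair. Its log2 fold change was 4.86 (SE 0.30, edgeR adjusted p = 5.78e-07).

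Cdh2 was scarce in both classes, with 106 UMIs in all epithelial cells and 103 in all fibroblasts. Its level was 1.065, 0.870, 0.623, 0.489 and 0.858 CPM in epithelial cells and 7.10, 13, 2.95, 5.60 and 4.06 CPM in fibroblasts. Every fibroblast value was above every epithelial one, and the log2 fold change was -2.91 (SE 0.34, edgeR adjusted p = 4.79e-05). Vim, the cytoskeletal filament of mesenchymal cells, stood at 57.2, 101, 53.5, 47.8 and 32.6 CPM in epithelial cells, highest in fresh 10x 2. Fibroblasts held it at 3469, 3538, 3634, 3336 and 3488 CPM, a narrow band (mean 3493 ± 109, SD, n = 5 libraries). The log2 fold change was -5.95 (SE 0.21, edgeR adjusted p = 2.12e-08).

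The 6 transcription factors split by how much of the fibroblast level was seen in epithelial cells. Snai1 differed least, at 9.41, 7.75, 15.3, 24.3 and 20.2 CPM in epithelial cells against 68.6, 43.2, 35.7, 54.1 and 43.5 CPM in fibroblasts. Its log2 fold change was -1.66 (SE 0.28, edgeR adjusted p = 0.000594), the smallest of the 8 mesenchymal members. Snai2, the paralogue also called Slug, was at 2.56, 2.18, 2.07, 1.17 and 1.55 CPM against 28.1 to 36.7 CPM in fibroblasts. Its log2 fold change was -4.05 (SE 0.15, edgeR adjusted p = 2.57e-08). The zinc finger factor Zeb1 was at 0.375 to 1.20 CPM in epithelial cells and at 55.6, 67.1, 108, 113 and 93.7 CPM in fibroblasts. Its log2 fold change was -6.47 (SE 0.20, edgeR adjusted p = 9.62e-09). Its relative Zeb2 was at 1.01 to 2.60 CPM against 173, 175, 223, 138 and 127 CPM, and its log2 fold change was -6.63 (SE 0.16, edgeR adjusted p = 4.91e-09). Twist1, a basic helix-loop-helix factor of the mesoderm, was at 0.322 to 1.27 CPM against 234, 213, 199, 117 and 108 CPM. Prrx1, a homeobox factor of limb and connective tissue mesenchyme, was at 0.697 to 2.40 CPM against 275, 294, 311, 395 and 348 CPM. Their log2 fold changes were -7.81 (SE 0.17, edgeR adjusted p = 4.54e-09) and -7.91 (SE 0.26, edgeR adjusted p = 1.43e-08), the largest in size among the members.

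Other genes of the pathway were read as 4 lists from the same comparison, in which 41% of 14550 genes were called higher and 31.3% lower. Cldn3, Cldn7 and Spint2 of the junction list also serve below as epithelial reference genes, picked as markers, so their direction was known beforehand. Of 13 epithelial gatekeeper regulators, which hold the epithelial state by splicing or transcription, 13 were higher in epithelial cells, with a median log2 fold change of 4.30, for example Ehf at 4.83, Grhl2 at 4.65 and Gata3 at 4.59. Foxa1 had 382 UMIs in epithelial cells and 0 in fibroblasts, so it was at least 15.8-fold higher against a floor of 3 UMIs over all fibroblasts; with it at that bound the median was 4.21. Of 20 junction and polarity genes, 19 were higher (median 4.45), among them the tight junction claudin Cldn3 at 5.03 and Marveld3 at 4.91, and Cdh3, which encodes P-cadherin, did not pass (-1.34, SE 0.61, edgeR adjusted p = 0.0737). Of 18 mesenchymal products 17 were tested and 17 were lower (median -6.71), from Lox at -8.75 and Cdh11 at -8.44 to the integrin Itgav at -0.81. The other EMT factors were mixed: of 15, 12 were tested, 6 were lower and 4 higher, with a median of -0.54. Twist2 (-8.46) and Prrx2 (-6.32) were lower, and Sox9 (3.81), Foxc1 (3.08), Id2 (2.52) and Sox4 (1.65) were higher in epithelial cells.

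**Figure D1:**
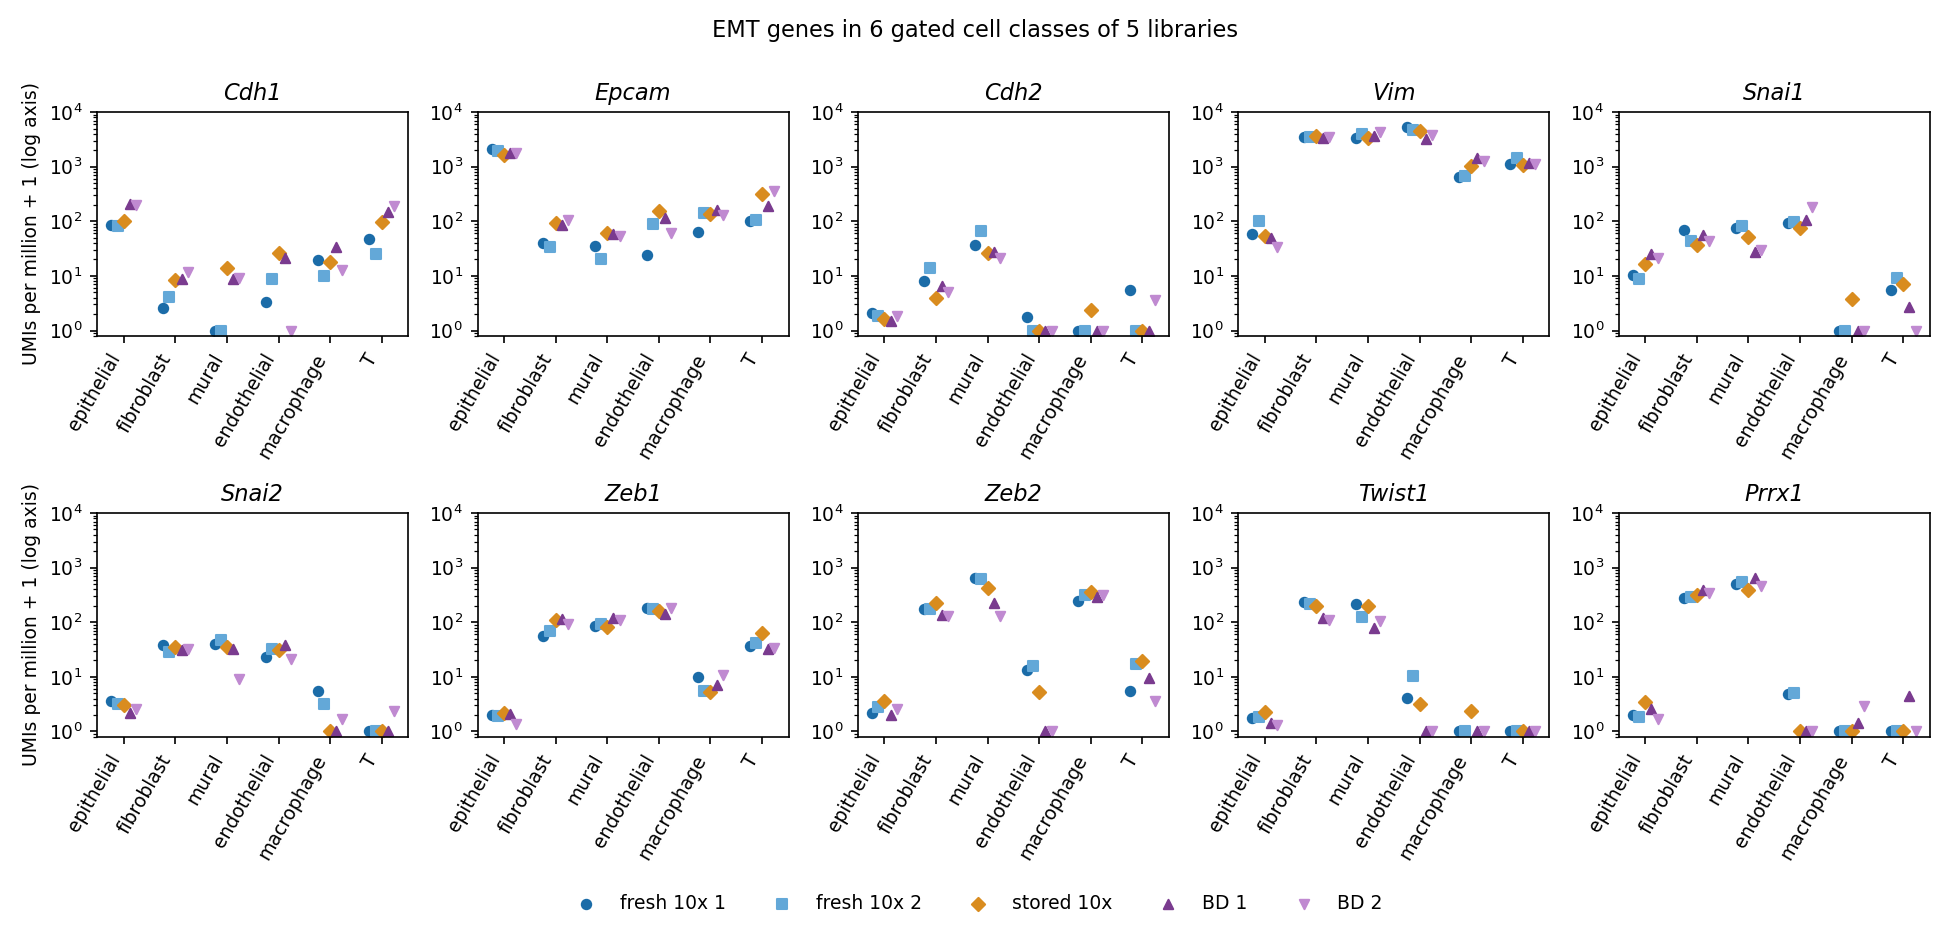
Level of each of the 10 EMT genes (CPM plus 1, log axis) in 6 gated cell classes, with 1 point per library. Cdh1 and Epcam are highest in epithelial cells except that Cdh1 in T cells reaches into the epithelial range, and Vim, Zeb1, Zeb2, Twist1 and Prrx1 are lowest or near the lowest there.

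Fibroblasts were not the class with the highest level of every mesenchymal member. The mural gate was meant for pericytes and smooth muscle of vessels, and a cell past both this gate and the fibroblast gate was counted here. Notch3, a pericyte receptor gene, was at 244 to 461 CPM in this class and 7.08 to 16.8 in fibroblasts. The class also held fibroblast markers, with Pdgfra at 65.9, 30.2, 183, 686 and 355 CPM against 300.2, 333, 393, 548 and 544 in fibroblasts, so that in BD 1 it was above the fibroblast level, and in BD 2 the pericyte gene Cspg4 was no higher (12.3 against 13.1 CPM). The levels below are those of cells past the mural gate, a mix in the stored 10x and BD Rhapsody libraries. Cdh2 was highest in them, at 36.6, 65.9, 25.6, 26.0 and 20.4 CPM, above the range of fibroblasts. Zeb1 was highest in endothelial cells at 179, 178, 161, 141 and 180 CPM (n = 9 cells in BD 2), and mural cells came next without overlap. T cells also held Zeb1, at 31.2 to 63.9 CPM, a range that overlapped that of fibroblasts. Zeb2 was at 659, 623, 422, 226 and 131 CPM in mural cells and at 246 to 357 CPM in macrophages, whose ranges overlapped. Macrophages stood above fibroblasts in Zeb2 without overlap. Snai1 was highest in endothelial cells at 74.3 to 180 CPM, which overlapped the mural range of 26.0 to 82.4. Vim in endothelial cells (3239 to 5322 CPM), mural cells (3326 to 4251) and fibroblasts overlapped, and T cells (1077 to 1438) and macrophages (656 to 1449) lay below these 3. Twist1 and Prrx1 were confined, among the 6 classes, to fibroblasts and mural cells at levels above 10 CPM: Twist1 at 78.0 to 217 and Prrx1 at 388 to 642 CPM past the mural gate overlapped the fibroblast ranges, in a class with the Pdgfra levels given above. T cells held 0 Twist1 UMIs in each library, against floors of 3 UMIs that correspond to 3.97 to 24.5 CPM.

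The levels of the mesenchymal members in epithelial cells were then set against what carried-over RNA would give. For each library and source class, the carried-over share was the median, over 5 to 7 reference genes of that class in no gate, of their epithelial level divided by their level in the source. The expected level of a member is the sum, over the 5 other classes, of share times the member's level there. The fibroblast share in epithelial cells was 0.243, 0.195, 0.776, 0.357 and 0.208%. Since source classes share some reference RNA, the sum can count the same molecules more than once, and with fibroblasts as the only source every ratio is higher.

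Of the 8 mesenchymal members, 4 exceeded the carried-over level in all 5 libraries with the exact Poisson 95% interval of the count above it, namely Snai1, Snai2, Cdh2 and Vim. For Snai1 the epithelial cells held 221, 196, 686, 744 and 376 UMIs where 10.9, 10.52, 19.7, 10.4 and 4.59 were expected from carried-over RNA. The ratios were 20.3, 18.6, 34.8, 71.7 and 82.0, highest in the BD Rhapsody libraries. For Snai2 the counts were 60, 55, 93, 36 and 29 UMIs where 4.24, 4.87, 14.9, 5.94 and 1.81 were expected, ratios of 6.06 to 16. For Cdh2 they were 25, 22, 28, 15 and 16 UMIs where 0.974 to 2.62 were expected, ratios of 7.71 to 19.7 on few molecules. With the highest reference gene of each source in place of the median, a choice made after seeing the data, the ratios of these 3 genes still lay above 1 in 5 of 5 libraries (11.4 to 40.9 for Snai1, 3.41 to 8.03 for Snai2 and 4.06 to 9.76 for Cdh2).

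Vim exceeded its carried-over level by less. Its counts were 1343, 2541, 2405, 1466 and 608 UMIs where 607, 648, 1849, 760 and 416 were expected. The ratios were 2.21, 3.92, 1.301, 1.93 and 1.46, so that in stored 10x carried-over RNA was equal to 76.9% of the Vim seen. The reference genes of a source differed among themselves, and with the highest of each in place of the median the ratio was above 1 in 3 of 5 libraries (1.44, 2.39, 0.886, 1.10 and 0.520). A few cells held much of the Vim, with 21.8, 24.1, 21.6, 37.8 and 24.3% of the epithelial Vim UMIs in the top 10 cells. Epithelial cells below 10 Vim UMIs per 10000 held 1047, 1221, 1657, 977 and 480 UMIs. In stored 10x that is fewer than the 1849 expected for the whole class, and in the other libraries it is more.

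For 4 factors no library had a count whose interval lay above the carried-over level. Zeb1 counts were 23, 23, 54, 34 and 7 UMIs against 16.1, 17.6, 54.1, 23.9 and 11 expected, with a median ratio of 1.31. Zeb2 counts were 28, 46, 117, 31 and 30 UMIs against 28.0, 56.5, 136, 41.0 and 21.3, a median ratio of 0.861. Twist1 counts were 18, 22, 57, 13 and 6 UMIs against 17.9, 14.8, 77.0, 16.8 and 7.90, a median ratio of 0.774. Prrx1 counts were 23, 21, 108, 47 and 13 UMIs against 26.1, 30.8, 123, 76.3 and 30.05, below the expected number in 5 of 5 libraries. With fibroblasts as the only source the median ratios were 2.76 for Zeb1, 2.85 for Zeb2, 1.35 for Twist1 and 1.09 for Prrx1. The interval lay wholly below the expected number for Prrx1 in BD 1 and BD 2 and for Twist1 in stored 10x. There the expected number was above what the cells held, so a low level of expression could be missed. Expression of these 4 factors in epithelial cells was not detectable above carried-over RNA from all classes at this depth. Over 5 libraries the exact two-sided sign-flip permutation test cannot go below p = 0.0625, which Snai1, Snai2, Cdh2, Vim and Prrx1 reached (adjusted over the 10 members, 0.125), and Zeb1, Zeb2 and Twist1 gave 0.625.

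The same control was run on the 2 epithelial members in fibroblasts, where the carried-over epithelial share was 1.36, 1.76, 6.44, 4.08 and 5.07%. Cdh1 counts of 4, 6, 25, 50 and 38 UMIs stood against 3.25, 2.89, 23.6, 58.4 and 36.9 expected, and no interval lay above the expected number. Epcam counts of 97, 63, 314, 543 and 356 UMIs stood against 76.4, 66.0, 367, 485 and 322 expected, ratios of 0.856 to 1.27. The interval lay above in fresh 10x 1 and BD 1 and below in stored 10x. The exact sign-flip permutation p was 0.3125 for Cdh1 and 0.5 for Epcam (5 libraries, two-sided). Both genes' fibroblast levels were within 2.07 times the carried-over level in each library.

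**Figure D2:**
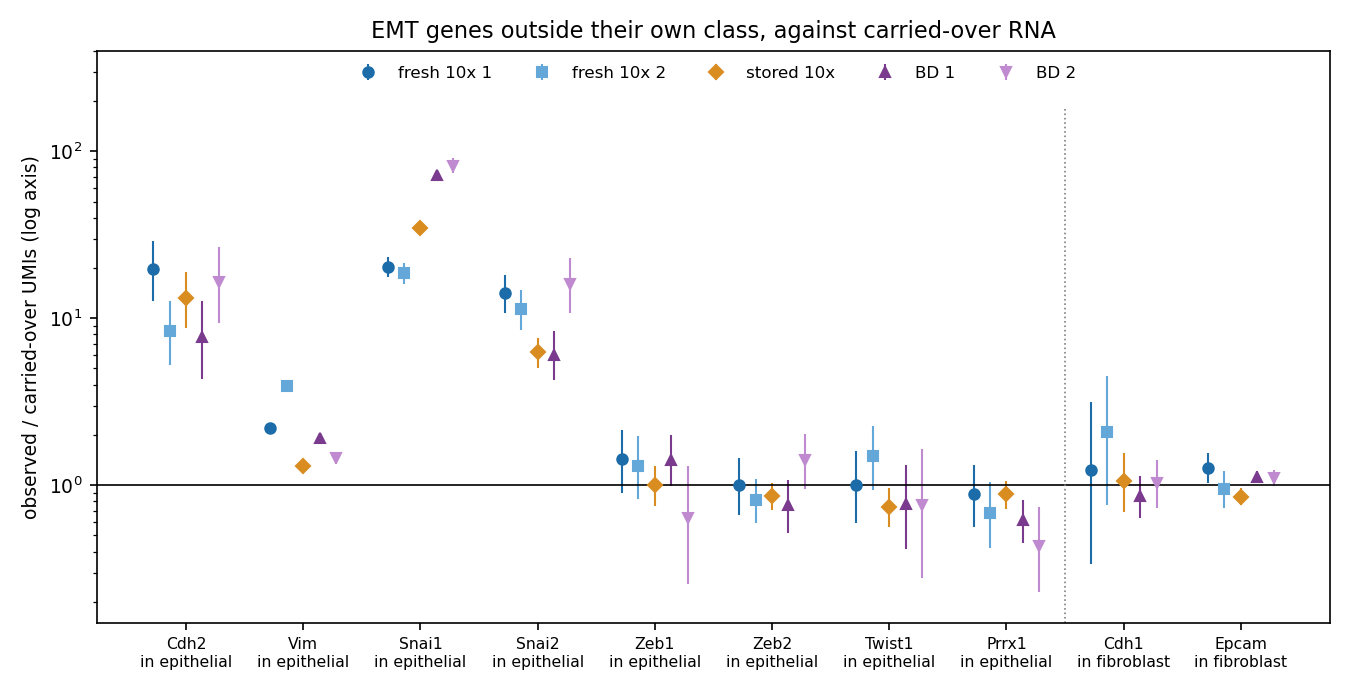
Observed UMIs divided by the UMIs expected from carried-over RNA (log axis), for the 8 mesenchymal genes in epithelial cells and for Cdh1 and Epcam in fibroblasts; bars are exact Poisson 95% intervals of the observed count and cover counting error only. Snai1, Snai2, Cdh2 and Vim lie above 1 in all 5 libraries, while Zeb1, Zeb2, Twist1, Prrx1, Cdh1 and Epcam lie around or below it.

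Per cell, Snai1 was the most often seen factor in epithelial cells. With every cell thinned to 2000 UMIs, 1.76, 1.36, 2.45, 3.804 and 3.11% of epithelial cells had a Snai1 UMI, against 11.8, 7.60, 6.14, 8.95 and 7.43% of fibroblasts. Shallower cells were left out (0 to 257 epithelial cells per library). Without thinning the epithelial shares were 11.9, 9.41, 12.9, 18.3 and 13.1%, at median depths of 10142 to 13952 UMIs. Macrophages, taken as a class that should lack Snai1, held 0, 0, 2, 0 and 0 Snai1 UMIs in 36, 65, 126, 179 and 164 cells at median depths of 5163 to 12147 UMIs. With 0 cells seen, the share of macrophages with a Snai1 UMI could be up to 1.68% in BD 1 and 8.33% in fresh 10x 1, which limits detection and not expression. At 2000 UMIs the epithelial shares for Zeb1, Zeb2, Twist1 and Prrx1 were at most 0.475%, against 10.6 to 48.8% in fibroblasts.

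Co-occurrence of the factors separated the classes. Of epithelial cells, 81.7, 84.0, 81.2, 76.5 and 83.2% had a UMI of none of the 6 factors. Cells with 2 or more factors made up 1.59, 1.43, 2.79, 1.56 and 0.748% of epithelial cells and 97.4, 95.9, 93.0, 96.3 and 87.7% of fibroblasts. Cells with 4 or more factors numbered 4, 0, 7, 0 and 0 among all epithelial cells, against 121, 80, 168, 212 and 112 fibroblasts. Without the epithelial cells that passed another class gate they numbered 1, 0, 0, 0 and 0. That filter takes out cells with stromal RNA, so the lower counts follow in part from it.

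Vim had a median of 0 UMIs per 10000 in epithelial cells of every library and 28.2 to 30.4 in fibroblasts. At or above 10 Vim UMIs per 10000 were 15, 38, 43, 7 and 10 epithelial cells, or 1.14% (exact binomial 95% interval 0.637 to 1.87), 2.86% (2.03 to 3.91), 1.52% (1.10 to 2.04), 0.403% (0.162 to 0.830) and 0.680% (0.327 to 1.25). Fresh 10x 2 had the highest share and the BD Rhapsody libraries the lowest. Cells were not thinned to equal depth for these shares. Median depths of the Vim-high cells were 9383, 13544.5, 3206, 25553 and 9234 UMIs. Below the value they were 12857.5, 13658.5, 11381, 13932.5 and 10141.5 UMIs. Of fibroblasts 89.0 to 94.9% were past the same value. Just below it, at 5 to 10, lay 19, 23, 48, 17 and 7 epithelial cells, and just above, at 10 to 20, 10, 15, 32, 3 and 8. Many of the Vim-high epithelial cells carried stromal or immune RNA as well: 6, 6, 26, 3 and 4 of them passed another class gate, and the 26 in stored 10x held the fibroblast reference genes at 12165 CPM. That left 9, 32, 17, 4 and 6 Vim-high cells with no other gate passed.

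The epithelial members were still present in these remaining Vim-high cells. Epcam in them was at 2097, 1583, 1655, 2424 and 1744 CPM, against 2123, 1907, 1647, 1762 and 1789 CPM in epithelial cells below the value. Cdh1 in them was at 130.5, 64.3, 133, 207 and 427 CPM, against 85.3, 82.7, 101, 209 and 200.05 CPM. Epcam was lower in the Vim-high cells of 3 of 5 libraries and Cdh1 of 2 of 5, fresh 10x 2 being the one library with both lower. Zeb1, Zeb2, Twist1 and Prrx1 were at 0 in the 32 cells of fresh 10x 2; elsewhere Zeb1 reached 9.32, Zeb2 44.3, Twist1 9.32 and Prrx1 24.4 CPM at most. These numbers describe few cells and carry no test.

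The 32 Vim-high cells of fresh 10x 2 shared a set of genes other than EMT genes, found by a rule chosen after the values were seen (seen in most of them, with at least 20 UMIs, ranked by fold). Col27a1, a fibrillar collagen gene of cartilage, had UMIs in 29 of the 32 cells, at 1423 CPM against 32.4 in the other epithelial cells. Car6, a secreted carbonic anhydrase, was at 6342 against 410.0 CPM, Rgcc at 707 against 52.6 CPM and Scrg1 at 406 against 34.1 CPM. In the other libraries Col27a1 was seen in 2 of 9, 3 of 17, 1 of 4 and 1 of 6 Vim-high cells. Its level in the Vim-high cells was 37.3, 59.1, 889 and 390 CPM, against 15.1 to 24.5 CPM in the other epithelial cells. The BD 1 and BD 2 levels each rest on 1 cell. Car6 was higher in the Vim-high cells of BD 1 (1486 against 216 CPM) and BD 2 (390 against 268 CPM). It was lower in those of fresh 10x 1 (0 against 304 CPM) and stored 10x (88.7 against 188 CPM).

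**Figure D3:**
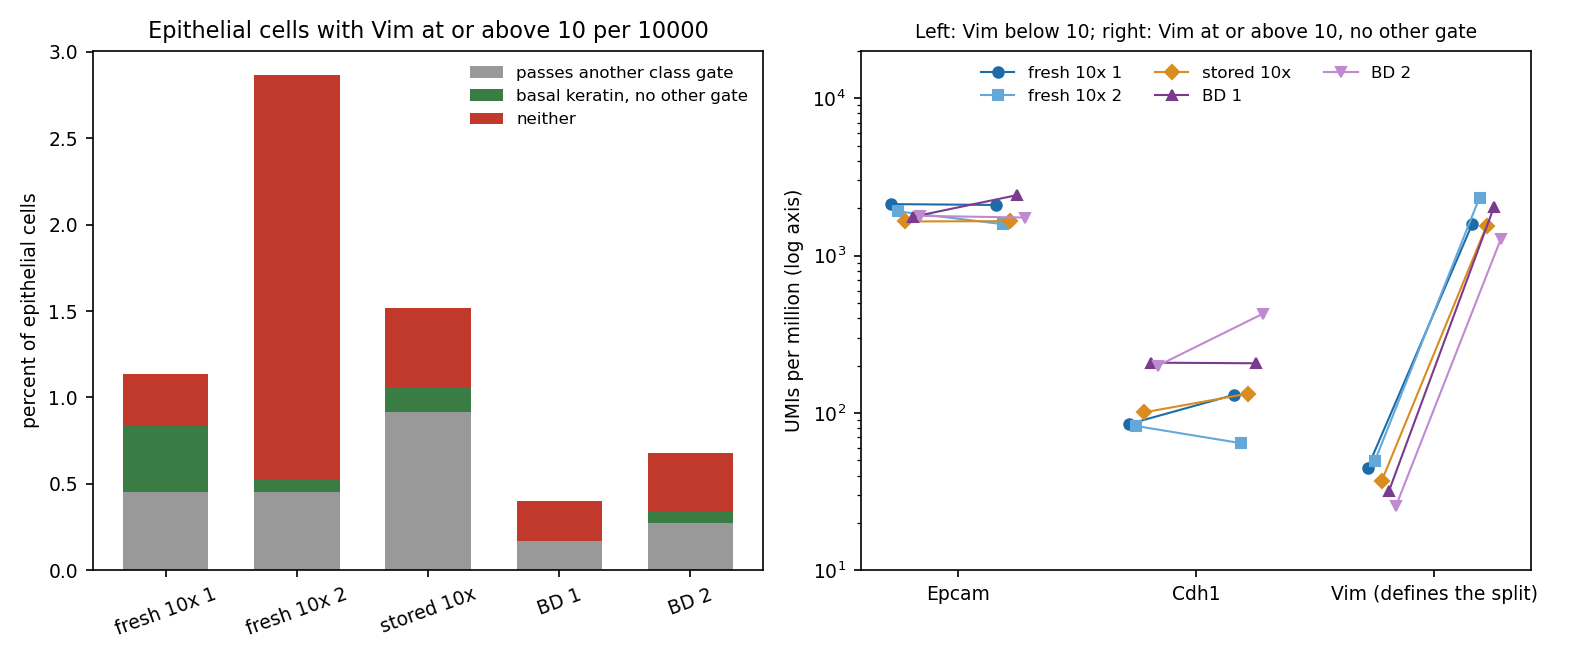
Left, percent of epithelial cells with at least 10 Vim UMIs per 10000 in each library, split by whether the cell also passes another class gate or is positive for basal keratins; right, Epcam, Cdh1 and Vim (CPM, log axis) below that value and at or above it in cells with no other gate passed. Fresh 10x 2 has the tallest bar at 2.86%, and Epcam stays between 1583 and 2424 in the Vim-high cells.

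Snai2 and Vim stood higher in epithelial cells with basal keratins, the cytoskeletal genes of the myoepithelial layer of the mammary gland. Cells of the epithelial class with at least 10 UMIs of Krt5 and Krt14 per 10000 numbered 41, 27, 61, 11 and 13. Their Snai2 level was 44.4, 61.7, 30.6, 66.7 and 7.75 CPM (25, 26, 26, 14 and 1 UMIs), against 1.53, 1.17, 1.52, 0.722 and 1.51 CPM in the other epithelial cells. They were higher in 5 of 5 libraries, with a mean log2 difference of 3.95 ± 1.36 (SD), and lowest in BD 2, where the level rests on 1 UMI. Their Vim level was 323, 119, 251, 224 and 217 CPM against 50.7, 100.2, 49.7, 46.6 and 31.3 CPM, again higher in 5 of 5 (mean log2 difference 2.04 ± 1.03). Most of the Vim was still in other cells, with 182, 50, 213, 47 and 28 UMIs in basal keratin cells and 1161, 2491, 2192, 1419 and 580 in the others. For Snai2 the others held 35, 29, 67, 22 and 28 UMIs, also more than the basal keratin cells in each library. Fresh 10x 2 had the smallest Vim difference. Among Vim-high cells with no other gate passed, 5 of 9, 1 of 32, 4 of 17, 0 of 4 and 1 of 6 had basal keratins. The exact two-sided sign-flip permutation p was 0.0625 for both, the smallest that 5 libraries allow (0.156 adjusted over the members).

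Zeb2 and Prrx1 had 1 and 2 UMIs in the basal keratin cells of stored 10x and 0 in those of the other libraries, too few to compare. Snai1 was higher in 1 of 5 libraries (mean log2 difference -0.83 ± 0.99, exact sign-flip permutation p = 0.1875). Cdh2 reached 21.3 CPM in fresh 10x 1, where 12 of the 25 epithelial Cdh2 UMIs were in basal keratin cells, and was at 0 in fresh 10x 2. Epcam was 1958, 1865, 1574, 2339.6 and 2549 CPM in basal keratin cells, higher in 2 of 5 libraries. Trp63, which encodes the basal transcription factor p63, was at 56.8, 87.8, 74.1, 81.0 and 7.75 CPM in these cells, lowest in BD 2 as Snai2 was. The other epithelial cells held Trp63 at 7.81, 6.03, 6.15, 6.80 and 7.99 CPM, so BD 2 showed no excess. Without the cell that passed another gate, the remaining 12 basal keratin cells of BD 2 held 0 Krt5 UMIs and passed on Krt14 alone. The macrophage reference genes, among them Apoe, summed to 1225, 1314, 454, 66.7 and 31.0 CPM in basal keratin cells and 46.4, 307, 139, 50.9 and 57.2 CPM in the others, and their part in the result was not tested. Without cells that passed another gate the mean log2 differences were 3.92 for Snai2 and 1.95 for Vim.

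**Figure D4:**
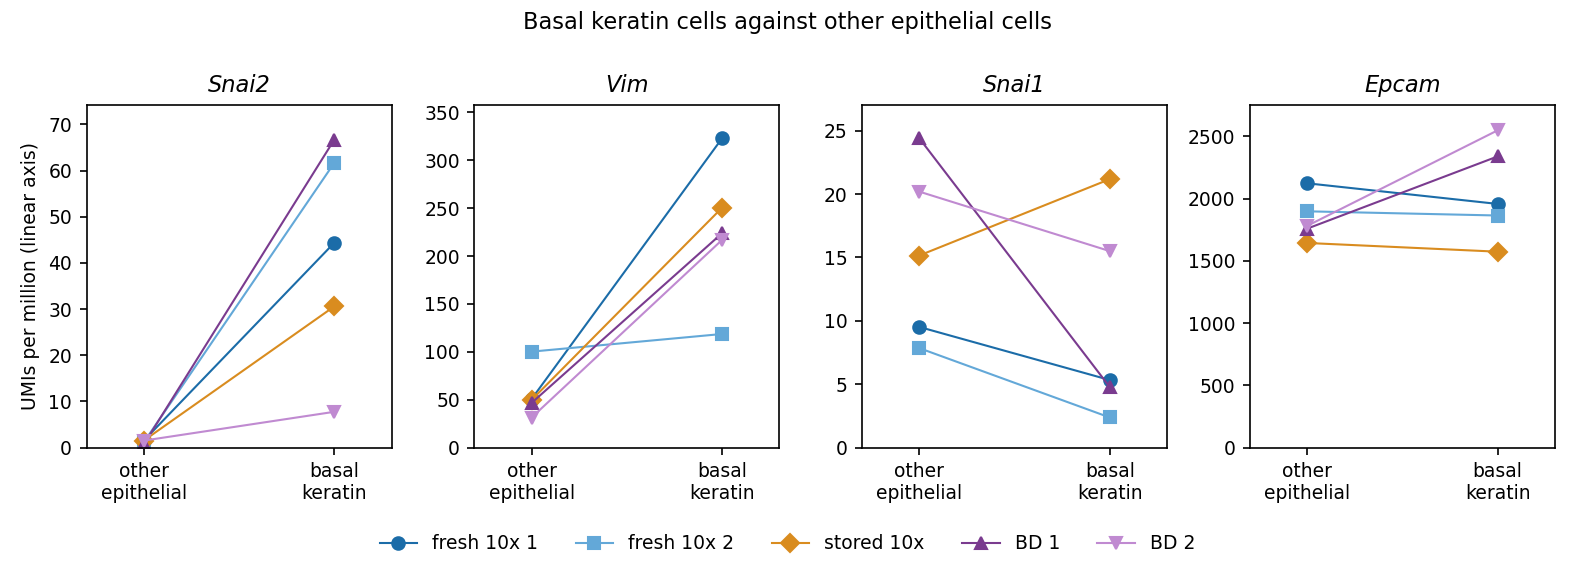
Snai2, Vim, Snai1 and Epcam (CPM, linear axes from 0) in epithelial cells without and with basal keratins, with a line per library. Snai2 and Vim rise to the basal keratin side in all 5 libraries, from 0.722 to 1.53 up to 7.75 to 66.7 for Snai2, while Snai1 and Epcam differ in direction between libraries.

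Storage was read from stored 10x against the fresh 10x pair, with edgeR and a spread that comes from the fresh pair alone. The lone stored library is assumed to vary like the fresh ones, and storage, tumour and library cannot be told apart. In epithelial cells 0 of the 10 members passed, where 1.69% of 14773 genes were called, 1.35% higher and 0.332% lower (2564 genes had an unadjusted p under 0.05, and DESeq2 called 0 members). Snai1 was nearest, at 15.3 CPM against 9.41 and 7.75, differing by 0.85 on the log2 scale (SE 0.17, edgeR adjusted p = 0.0583). It passed when genes with low counts were kept (0.86, edgeR adjusted p = 0.00324) and with a minimum of 2500 UMIs per cell (0.85, edgeR adjusted p = 0.0265). Prrx1 had the largest difference, at 2.40 against 0.98 and 0.831 CPM (1.42, SE 0.41, edgeR adjusted p = 0.137), in a library whose fibroblast share in epithelial cells was 0.776% against 0.243 and 0.195%. Vim was at 53.5 CPM against 57.2 and 101 (-0.54, SE 0.27, edgeR adjusted p = 0.358), and the fresh pair differed more from each other than stored 10x did from fresh 10x 1. Among the mesenchymal products 3 of 17 were higher and 0 lower in stored epithelial cells (median 0.63).

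In fibroblasts 2 of 10 members were higher in stored 10x, where 9.44% of 12041 genes were called, 5.34% higher and 4.1% lower. Epcam rose from 38.3 and 32.8 to 92.6 CPM (log2 fold change 1.38, SE 0.19, edgeR adjusted p = 0.000227), while the carried-over epithelial share went from 1.36 and 1.76% to 6.44% and the observed Epcam was 0.856 times its carried-over level. Cdh1 went the same way without passing (1.70, SE 0.56, edgeR adjusted p = 0.0715). Zeb1 rose from 55.6 and 67.1 to 108 CPM (0.84, SE 0.18, edgeR adjusted p = 0.00747). DESeq2 called neither Epcam (adjusted p = 0.104) nor Zeb1 (adjusted p = 0.755). With genes of low counts kept, Cdh1 (1.71), Cdh2 (-1.70) and Snai1 (-0.65) also passed in edgeR. Vim, Snai2, Twist1 and Prrx1 in fibroblasts had log2 fold changes between -0.16 and 0.14.

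Platform was read from BD 1 against the fresh 10x pair, so platform, tumour and library cannot be told apart, and the lone BD library is assumed to vary like the fresh pair, on whose difference each p-value rests. In epithelial cells 4 of 10 members passed, where 44.5% of 14773 genes were called, 22.2% in each direction. Cdh1 was higher at 209 against 85.3 and 82.1 CPM (log2 fold change 1.16, SE 0.11, edgeR adjusted p = 0.000158), and Snai1 at 24.3 against 9.41 and 7.75 CPM (1.35, SE 0.17, edgeR adjusted p = 0.000546). BD 2, which enters no group, was at 201 and 20.2 CPM for these genes. Vim was lower at 47.8 against 57.2 and 101 CPM (-0.87, SE 0.28, edgeR adjusted p = 0.0351) and Snai2 at 1.17 against 2.56 and 2.18 CPM (-1.16, SE 0.40, edgeR adjusted p = 0.0456). DESeq2 kept neither of these 2 lower calls (adjusted p = 0.364 and 0.367). Basal keratin cells, where Snai2 stood higher, made up 11 of 1735 epithelial cells in BD 1 and 41 of 1321 and 27 of 1328 in the fresh pair. In the other epithelial cells Snai2 was also lower in BD 1, at 0.722 CPM against 1.53 and 1.17. The part of basal keratin cells in the Snai2 call was not tested.

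In fibroblasts 5 of 10 members passed between BD 1 and the fresh pair, where 42% of 12041 genes were called, 20.7% higher and 21.3% lower. Twist1 fell from 234 and 213 to 117 CPM (log2 fold change -1.06, SE 0.19, edgeR adjusted p = 0.000330), and BD 2 stood at 108 CPM. Zeb1 was higher (0.76, SE 0.17, edgeR adjusted p = 0.00246), as were Epcam (1.12, SE 0.18, edgeR adjusted p = 0.000159) and Cdh1 (1.65, SE 0.52, edgeR adjusted p = 0.0179), the last 2 beside a carried-over epithelial share of 4.08% against 1.36 and 1.76%. Zeb2 lay at the threshold (-0.46, SE 0.18, edgeR adjusted p = 0.04998). DESeq2 kept only the Twist1 call of these 5. Snai1 went up in epithelial cells and not in fibroblasts (-0.19, SE 0.22), and that difference between classes was not itself tested. A related contrast, the interaction of class and platform over all 5 libraries, put stored 10x with 10x and BD 2 with BD 1. It did not pass for Snai1 (1.12, SE 0.41, edgeR adjusted p = 0.389). It called 0 of 10 members and 0.0137% of 14550 genes, 0.00687% in each direction (1644 genes had an unadjusted p under 0.05).

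**Figure D5:**
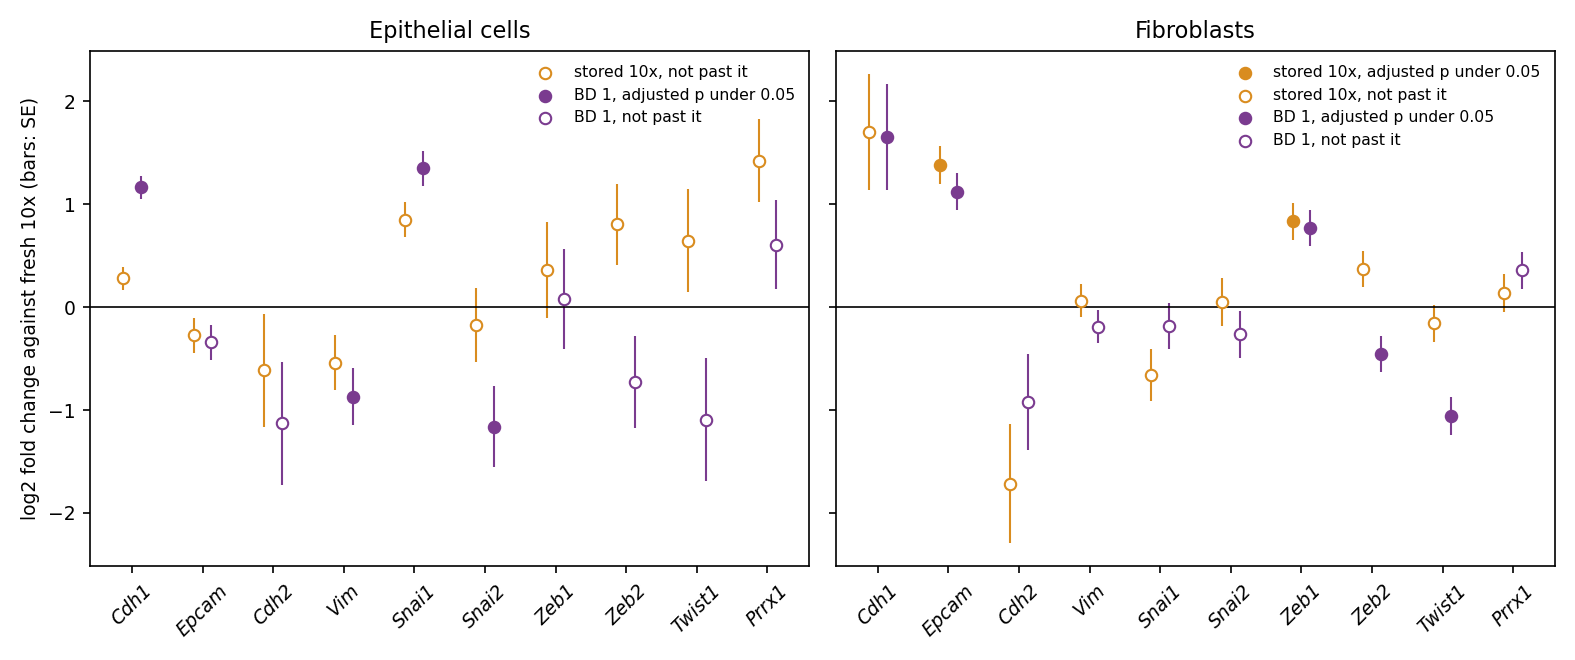
Log2 fold change of each member against the fresh 10x pair for stored 10x and BD 1, in epithelial cells and in fibroblasts; bars are standard errors and filled points have an edgeR adjusted p under 0.05. In epithelial cells Cdh1 and Snai1 are higher in BD 1, and in fibroblasts Epcam and Zeb1 are higher in both while Twist1 is lower in BD 1.

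For each member the genes whose levels ran most alike over 28 class and library sums (at least 20 cells each) were listed by Pearson correlation of log2(CPM + 1), as a description across sums that share libraries and classes. Epcam ran most like Plet1 (0.966) and Lcn2 (0.963), and Cdh1 like Arfgef3 (0.899) and Dennd2d (0.897). Cdh2 ran like Daam2 (0.924), Pde5a (0.923) and Kcnj8 (0.922), the last being a gene of the mural gate. Twist1 ran like Adamtsl5 (0.988), Slit3 (0.983) and Aspn (0.977), and Prrx1 like Kirrel (0.984), Fxyd1 (0.984) and Ebf2 (0.982). Snai2 was closest to the basement membrane collagen gene Col4a2 (0.962), Snai1 to Cavin3 (0.919), Zeb1 to Ctla2a (0.931), Zeb2 to Rnf150 (0.929) and Vim to Trim35 (0.953).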

How the data were processed

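Single-cell RNA libraries of 5 tumour samples were analysed from the raw UMI counts per gene and cell that the authors deposited, 5 of 8 matrices; a pooled fresh 10x matrix and a pair of replicate matrices of BD 1 (3 matrices) were not used. Per the submitters' processing notes, Cell Ranger 3.0.1 and build mm10 were used, with no role given; the sources used here do not give filters made before deposit. Spellings of a gene symbol were merged. The members and gene lists were chosen with earlier results of these data known. All 10 members were named; from the other lists the largest called changes were.

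Cells with at least 1000 UMIs were gated on UMIs per 10000: epithelial, Krt8 and Krt18 at 10; other classes need keratins below 10 and fibroblast genes (Col1a1, Col1a2, Dcn) at 20, mural (Rgs5, Abcc9, Kcnj8) at 5, endothelial (Pecam1, Cdh5, Cldn5) at 5, macrophage (C1qa, C1qb, C1qc) at 10 or T (Cd3d, Cd3e, Cd3g) at 2. A cell past both mural and fibroblast gates was mural; other cells past several were left out. Cells are not replicates, so counts were summed per class and library. Sums were tested in edgeR 4.0.16 (R 4.3.3; filterByExpr, TMM, glmQLFTest, Benjamini-Hochberg, adjusted p under 0.05), with the library as a block between classes, since both classes come from the same library, and by group between conditions. On simulated counts for the comparison of classes over 14550 genes, 79% of 2-fold and 94% of 4-fold changes were recovered, with 14 false calls. The simulation gave every gene the same dispersion and changed only a small set of genes, whereas 72.4% were called in the data. Its recovery and false calls are therefore a check of the code and not error rates of that comparison. Alternatives used DESeq2 1.42.0, RLE size factors, other filters, gates and minimums, left-out libraries and other carried-over shares. Poisson and binomial intervals (95%) and floors of 3 UMIs cover counting error only. Analyses outside R ran in Python 3.11.15 with scipy 1.17.1.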

Additional observations from a re-analysis of the deposited data

How the results depend on the processing

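Between epithelial cells and fibroblasts all 10 members kept their direction and call in each of 17 alternatives. The log2 fold changes ranged from 4.32 to 8.0 for Cdh1, 4.63 to 8.22 for Epcam, -11.23 to -7.53 for Prrx1, -10.39 to -7.35 for Twist1 and -2.22 to -1.36 for Snai1. The count of genes called was 10528; it was 9272 to 10153 when a library was left out, and 7242 with no replicate block, that is without pairing the classes by library. The median of all genes, 0.17, became -0.34 with DESeq2, 0.38 with no filter, 0.06 with the keratin gate at 20 and 0.05 with 10x libraries alone. For stored 10x in epithelial cells 249 genes were called; DESeq2 gave 122, RLE size factors 123, no filter 760, a minimum of 2500 UMIs 475, and leaving out double-positive cells with a stricter fibroblast gate 128. DESeq2 called 3541 in place of 6572 genes for BD 1 in epithelial cells, 147 in place of 1137 for stored fibroblasts and 1158 in place of 5054 for BD 1 fibroblasts; the cause was not tested.

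Between BD 1 and fresh epithelial cells, Zeb2, not called, turned from -0.73 to 0.51 without double-positive cells and Zeb1 from 0.08 to -0.39 with BD 2 grouped with BD 1; Twist1 passed in that grouping (-1.21, edgeR adjusted p = 0.0445), and Snai2 did not without double-positive cells (-1.04, edgeR adjusted p = 0.0759). Zeb2 in BD 1 fibroblasts was lost with no filter (edgeR adjusted p = 0.0801) and with the 2500 minimum (edgeR adjusted p = 0.0519). Against each fresh library alone (no test, log2 CPM + 1) the BD 1 Snai1 difference was 1.28 and 1.53, and Vim -0.25 and -1.06.

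Median ratios to carried-over RNA were, for Epcam in fibroblasts, 0.965 with pooled reference genes, 0.990 with the keratin gate at 20, 0.949 with it at 5 and 0.627 with the highest reference genes. That last setting gave 0.668 for Cdh1 in fibroblasts, 0.784 for Zeb1, 1.10 for Vim, 5.53 for Cdh2, 7.07 for Snai2, 0.425 for Prrx1, 0.487 for Twist1 and 0.524 for Zeb2. Zeb1 was 0.954 with the gate at 5. With fibroblasts as the only source the ratios were 1.09 for Prrx1, 1.35 for Twist1, 2.85 for Zeb2, 2.76 for Zeb1, 4.48 for Vim, 23.4 for Snai2, 34.3 for Cdh2 and 92.1 for Snai1. Snai2 was 6.17 with the gate at 20, and Cdh2 20.9 without double-positive cells. The gate at 5, the only-source ratios, the highest reference genes and the interaction of class and platform were chosen after seeing the data. Leaving out a library moved the median ratio of Snai1 between 27.6 and 53.3 and of Vim between 1.70 and 2.07.

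The percent of epithelial cells past the Vim value was, at 5 and at 20 UMIs per 10000, 2.57 and 0.379 (fresh 10x 1), 4.59 and 1.73 (fresh 10x 2), and 3.22 and 0.389 (stored 10x); at 5 it was 1.38 in BD 1 and at 20 it was 0.136 in BD 2. In stored 10x it was 0.968 with the 2500 minimum, 0.618 without double-positive cells and 2.42 with the keratin gate at 5. Few UMIs limit Cdh2, and few cells limit the Vim-high and basal groups.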

Other observations

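Cdh1, the E-cadherin gene, was also seen in T cells. These held Cdh1 at 45.5, 24.5, 94.3, 147 and 191 CPM, a range that overlapped that of epithelial cells. Cdh1 made up 3.87, 4.15, 5.77, 10.6 and 10.1% of the Cdh1 and Epcam UMIs of epithelial cells. In T cells it made up 31.3, 18.8, 23.3, 44 and 34.9%. The exact binomial 95% intervals in T cells (16.1 to 50.01, 4.05 to 45.7, 16.4 to 31.4, 36.9 to 51.4 and 30.3 to 39.7%) lay above the epithelial share in 4 of 5 libraries, fresh 10x 2 being the exception with 3 Cdh1 UMIs. In fibroblasts the share was 3.96 to 9.64%. In macrophages it was 22.2, 5.88, 11.2, 17.2 and 8.33%, with the interval above the epithelial share in 3 of 5 libraries, and in endothelial cells of stored 10x it was 14.3% (7.61 to 23.6), also above. A share above the epithelial one was therefore not particular to T cells, and the part of carried-over RNA in it was not tested.

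Among cells without an Epcam UMI, Cdh1 was seen in 4 of 43, 2 of 19, 7 of 59, 17 of 52 and 30 of 78 T cells. In BD 1 and BD 2 these are 32.7 and 38.5%, against 8.59 and 7.38% of fibroblasts and 9.41 and 3.81% of macrophages without an Epcam UMI. T cells were the shallower class, with median depths of 5294 and 4589 UMIs against 18679 and 14630 in fibroblasts. This pattern was noticed in these data and was not tested further.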
